A study of Rattus norvegicus with 6 samples.

Results

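The genes described here encode the nuclear subunits of the mitochondrial respiratory chain and of ATP synthase, with the assembly factors that share their symbols' prefixes. They were chosen by symbol, as every gene whose name begins with Nduf, Uqcr, Cox and a digit, or Atp5, together with Sdha, Sdhb, Sdhc, Sdhd, Cyc1 and Cycs, and the rule itself uses no expression value. This gave 96 genes among the 17172 genes and loci of the study. They comprise 34 genes of complex I, 4 of complex II, 9 of complex III, the gene of cytochrome c, 16 of complex IV, 15 of ATP synthase (complex V) and 17 genes that are assembly factors or related proteins and not subunits. The subunits encoded by mitochondrial DNA were not analysed here.

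RNA was measured in c-kit+ bone marrow cells of 6 ACI rats, of which 3 received phenylhydrazine (PHZ) and 3 phosphate-buffered saline (PBS). PHZ at 100 mg/kg, or an equal amount of PBS, was given into the peritoneal cavity of rats aged 6 to 8 weeks, and marrow of the hind legs was taken 36 h later. PHZ oxidises haemoglobin and lyses red cells, which causes anaemia. c-kit is the receptor of stem cell factor and marks haematopoietic stem and progenitor cells as well as early erythroid precursors, and the cells were enriched with an antibody and streptavidin particles. By the labels, 2 rats of each group were female and 1 was male, and every rat gave 1 poly(A) library.

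Respiration passes electrons from NADH, through complex I, or from succinate, through complex II, to ubiquinone. Complex III hands them to cytochrome c and complex IV to oxygen, and complexes I, III and IV pump protons that ATP synthase uses to make ATP. Erythroid precursors depend on mitochondria for the first and last steps of haem synthesis, and mature red cells of mammals have lost them. Haematopoietic stem cells are known for relying largely on glycolysis, and respiration is known to increase as their progeny differentiate.

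The libraries held 13196249 to 19492793 expected counts, and 13547 genes passed the filter on low counts. Globin genes took 9.59% of counts in PHZ replicate 1, 22.08% in PHZ replicate 2 and 16.19% in PHZ replicate 3, against 12.65%, 10.09% and 20.65% in PBS replicates 1 to 3. Transcripts of Y-linked genes went against the sex label in 3 libraries. PHZ replicate 3 and PBS replicate 1, labelled female, held 2136 and 3297 Y-linked counts, and PBS replicate 2, labelled male, held 0. The identity of these 3 libraries is therefore uncertain, and whether their treatment labels hold was not tested. Kit, the gene of the antigen used for enrichment, was present in every library, at 33.9, 55.1 and 71.6 CPM (counts scaled to library size with TMM factors) after PHZ and 54.9, 63.9 and 51.7 CPM after PBS.

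The respiratory chain and ATP synthase genes were mostly higher after PHZ. Their summed counts made up 0.932%, 0.928% and 0.799% of all counts in PHZ libraries, against 0.676%, 0.64% and 0.572% in PBS libraries, so the groups did not overlap. Of the 96 genes, 92 passed the filter. Of these 92, 23 (25%) rose and 0 fell at an adjusted p under 0.05 by edgeR's quasi-likelihood test, where 8.99% of all tested genes rose and 4.17% fell. At an unadjusted p under 0.05, 57 were higher and 0 lower, and DESeq2 called 43 higher and 0 lower, where it called 14.1% of all tested genes higher.

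The 23 genes were spread over most of the chain. They were 11 subunits of complex I (Ndufs1, Ndufab1, Ndufs3, Ndufa9, Ndufa11, Ndufv3, Ndufb8, Ndufa5, Ndufv1, Ndufs4 and Ndufa12), the complex II subunit Sdhb, the complex III subunits Cyc1, Uqcrc1 and Uqcrq, cytochrome c (Cycs), 6 subunits of ATP synthase (Atp5mc1, Atp5f1b, Atp5f1a, Atp5mc3, Atp5f1d and Atp5po) and the assembly factor Ndufaf1. None of the 12 tested complex IV genes passed the threshold by edgeR, although 6 had an unadjusted p under 0.05 and DESeq2 called 4 of them. The estimates themselves were modest and similar, since the median log2 fold change of PHZ over PBS was 0.50 over the 92 genes, with a range of −0.25 to 1.00, beside a median of −0.04 over all tested genes. The estimate was positive in 86 of the 92, and in 68 (73.9%) every PHZ library lay above every PBS library, where this held for 22.5% of all tested genes. The opposite order was found in 0 of the 92 and in 19.2% of all tested genes.

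How many genes passed the threshold depended on single libraries. Without PBS replicate 2 or without PBS replicate 3, 0 of 92 genes were called by edgeR, and also 0 genes in the whole transcriptome, although 43 and 42 of the 92 were higher at an unadjusted p under 0.05. The count was 4 without PHZ replicate 2, 7 without PHZ replicate 3 and 15 without PBS replicate 1. The median log2 fold change of the tested genes lay between 0.39 and 0.58 in the fits that each left out 1 library. It was 0.60 without the 3 libraries that went against their sex label, where 88 of 93 tested genes had a positive estimate. That fit set PHZ replicates 1 and 2 against PBS replicate 3 alone, so every estimate in it rests on 1 control library.

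**Figure D1:**
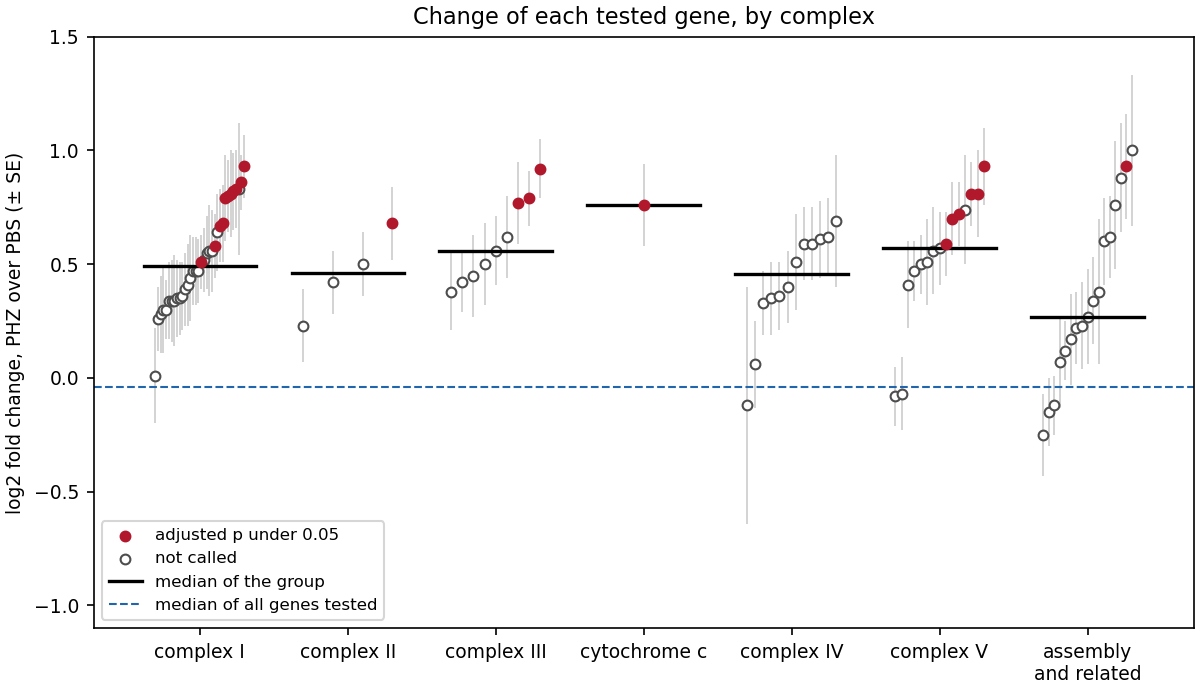
Log2 fold change of PHZ over PBS (vertical axis, ± SE) of each of the 92 tested genes, grouped by complex and ordered by size within a group. Filled points had an adjusted p under 0.05, black bars are the group medians (0.46 to 0.57 for complexes I to V, 0.27 for assembly factors and related genes) and the dashed line is the median of all tested genes, −0.04.

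Complex I, which takes electrons from NADH, had all of its 34 genes tested. Of these, 11 (32.4%) rose and 0 fell, and every estimate was positive (median log2 fold change 0.49, range 0.01 to 0.93). In 29 (85.3%) every PHZ library lay above every PBS library. Over all tested genes, 8.99% rose and 4.17% fell, and 22.5% had this order. Ndufs1 carries iron-sulfur clusters of the NADH-oxidising arm. It had 91.4, 82.9 and 83.6 CPM in PHZ libraries, against 51.2, 45.2 and 45.9 CPM in PBS libraries. The groups were far apart and the 3 PHZ libraries close together, and the difference was 1.81-fold (log2 0.86 ± 0.12 SE, adjusted p = 0.0176).

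Ndufab1 is the mitochondrial acyl carrier protein, which serves fatty acid and lipoic acid synthesis in addition to its place in complex I. It had 50.0, 61.1 and 46.3 CPM after PHZ and 26.7, 28.4 and 27.5 CPM after PBS, a 1.91-fold difference (adjusted p = 0.0205). All PBS libraries lay within a narrow range well under the lowest PHZ library. Ndufs3, a core subunit of the arm that reduces ubiquinone, had 35.2, 44.3 and 34.2 CPM in PHZ libraries and 24.0, 18.7 and 21.1 CPM in PBS libraries, again without overlap (1.78-fold, adjusted p = 0.0286).

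The other core subunits of complex I were less uniform. Ndufv1, which binds NADH and flavin, rose 1.49-fold (adjusted p = 0.0426). Its partner Ndufv2 had a log2 fold change of 0.55 ± 0.16 and an adjusted p of 0.0657. In the ubiquinone arm, Ndufs7 and Ndufs8 had log2 fold changes of 0.36 and 0.41 and were not called.

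Of the 27 supernumerary subunits, which surround the core and serve its assembly and stability, 8 (29.6%) rose and 19 were not called. Over all tested genes 8.99% rose. Ndufa9, Ndufa11, Ndufa5 and Ndufs4 had log2 fold changes of 0.80, 0.82, 0.81 and 0.79, while Ndufa6, Ndufa2 and Ndufb10 had 0.26, 0.28 and 0.30. At the low end, Ndufa1, a small subunit of the membrane arm, had 33.2, 48.1 and 29.4 CPM after PHZ, against 41.4, 33.1 and 35.3 CPM after PBS. The PHZ values spread on both sides of the PBS values (log2 0.01 ± 0.21, adjusted p = 0.97), and the sign of this estimate turned negative under RLE, upper-quartile and library-total scaling. The counts of Ndufa10 and its relative Ndufa10l1 were partly shared with other loci and are uncertain. Their log2 fold changes were 0.56 and 0.83, and neither was called.

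**Figure D2:**
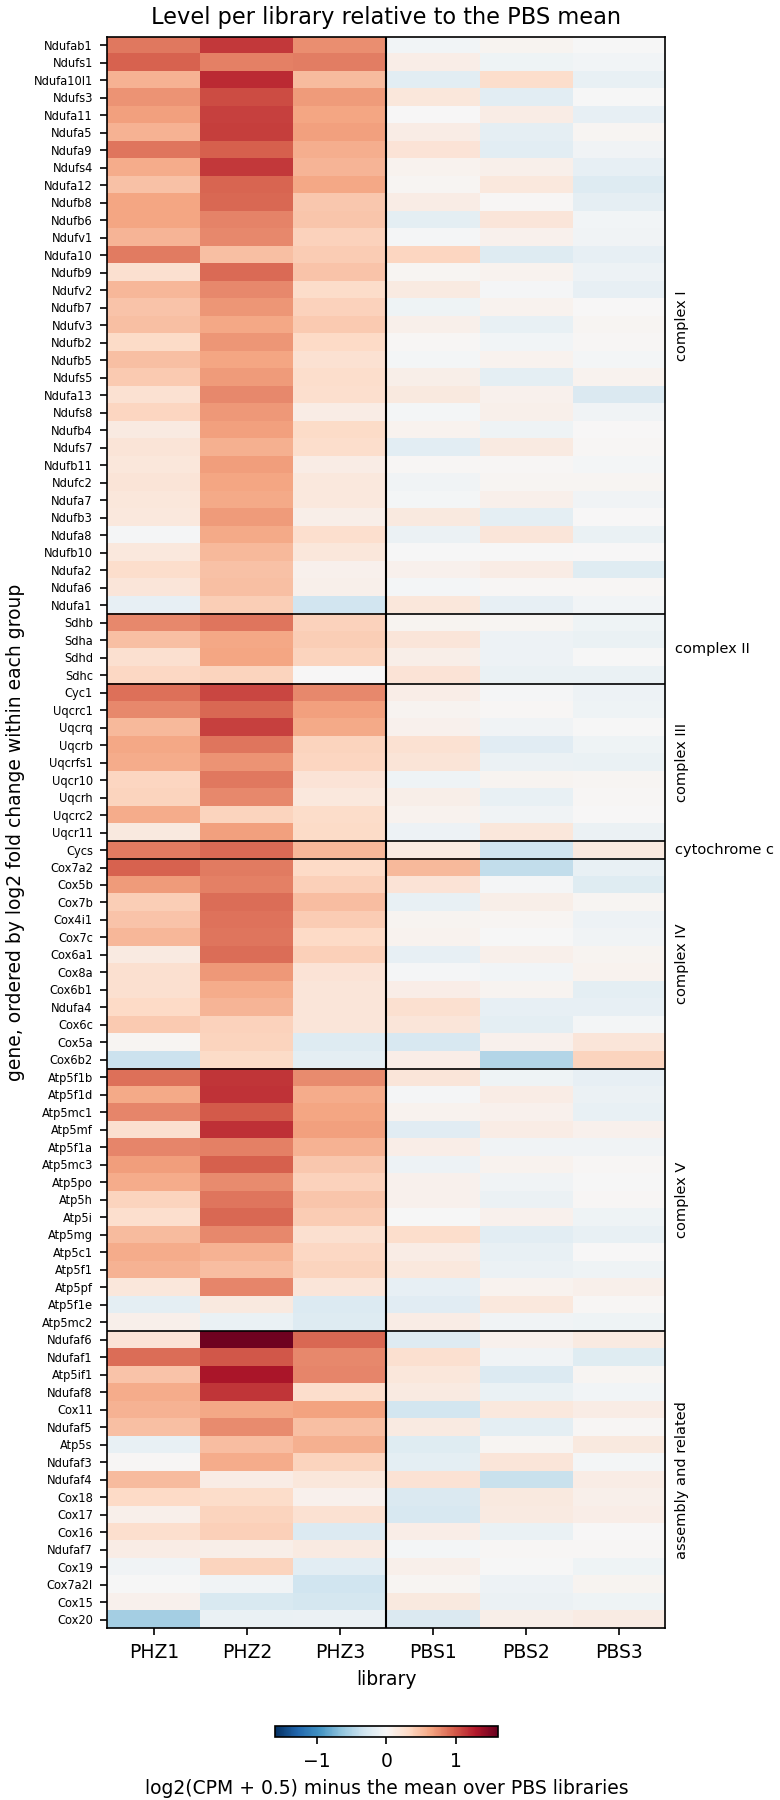
Level of the tested genes (rows, by complex, with 1 gene left out) in each library (columns), as log2(CPM + 0.5) minus the mean over the PBS libraries. Red is above and blue below the PBS mean. The column of PHZ replicate 2 is the reddest, being the highest PHZ library in 75 of the 92 genes on this TMM-scaled measure.

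Complex II oxidises succinate and is encoded wholly in the nucleus. Of its 4 genes 1 (25%) rose, where 8.99% of all tested genes did. Sdhb, its iron-sulfur subunit, had 103, 109.7 and 77.8 CPM in PHZ libraries, against 62.0, 61.5 and 57.1 CPM in PBS libraries. PHZ replicate 3 was the lowest of its group and still above all PBS libraries (1.61-fold, log2 0.68 ± 0.16, adjusted p = 0.0386).

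The other subunits of complex II had smaller estimates. Sdha, the flavoprotein that holds the succinate site, had 116, 128 and 109 CPM after PHZ and 95.3, 78.3 and 76.8 CPM after PBS, without overlap (1.41-fold, adjusted p = 0.0591). Sdhd, a membrane anchor, had 75.2, 98.0 and 80.8 CPM after PHZ and 67.1, 59.6 and 62.8 CPM after PBS, also without overlap (1.34-fold, adjusted p = 0.0871). Sdhc, the other anchor, had 67.3, 69.0 and 53.8 CPM after PHZ and 62.3, 49.6 and 49.8 CPM after PBS, where PHZ replicate 3 lay under PBS replicate 1 (1.18-fold, adjusted p = 0.333).

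Complex III, which oxidises ubiquinol and reduces cytochrome c, had 9 tested genes, of which 3 (33.3%) rose and 0 fell. Its median log2 fold change was 0.56, with a range of 0.38 to 0.92. In 8 of the 9 (88.9%) every PHZ library lay above every PBS library. Over all tested genes, 8.99% rose and 22.5% had this order. Cyc1, cytochrome c1, which passes the electron on, had 139, 158 and 128 CPM in PHZ libraries, against 80.9, 73.7 and 70.5 CPM in PBS libraries. The lowest PHZ library lay well above the highest PBS library (1.89-fold, log2 0.92 ± 0.13, adjusted p = 0.0187).

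Uqcrc1 is a core protein of complex III that faces the matrix. It had 150.5, 167 and 139 CPM after PHZ and 90.7, 89.3 and 84.3 CPM after PBS, with both groups tight and apart (1.73-fold, adjusted p = 0.0212). Uqcrq, a small membrane subunit, had 60.2, 89.7 and 64.1 CPM after PHZ and 43.8, 40.3 and 41.7 CPM after PBS, with PHZ replicate 2 standing above the other 2 PHZ libraries (1.70-fold, adjusted p = 0.0391). Uqcrfs1, the Rieske iron-sulfur protein and the other electron-carrying nuclear subunit, had a log2 fold change of 0.56 ± 0.15 with an adjusted p of 0.0588. Uqcr11 had the weakest evidence of the 9, with 55.5, 78.9 and 61.8 CPM after PHZ and 47.3, 56.5 and 46.6 CPM after PBS, where PHZ replicate 1 lay under PBS replicate 2 (adjusted p = 0.164).

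Cytochrome c, the soluble carrier between complexes III and IV that also triggers apoptosis when released, is encoded by Cycs, which rose. Cycs had 81.9, 86.2 and 66.1 CPM in PHZ libraries and 50.5, 36.9 and 51.0 CPM in PBS libraries, without overlap (1.69-fold, log2 0.76 ± 0.18, adjusted p = 0.0409). Its expected counts were not whole in 6 of 6 libraries, as its reads were partly shared with other loci, and its level is uncertain to that extent.

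Complex IV, cytochrome c oxidase, had 16 genes in the files, of which 12 were tested and 0 were called in either direction. Of the 11 widely expressed subunits, all had a positive estimate (0.06 to 0.69). In 8 (72.7%) every PHZ library lay above every PBS library, an order found in 22.5% of all tested genes. The smallest adjusted p-values lay just over the threshold. Cox5b, a zinc-binding subunit, had 113, 123 and 91.3 CPM after PHZ and 81.7, 69.2 and 61.4 CPM after PBS (1.54-fold, adjusted p = 0.0551). All 3 PHZ libraries were above all PBS libraries.

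The next members of complex IV had the same arrangement. Cox7c had 92.9, 116 and 80.1 CPM after PHZ and 66.7, 63.9 and 61.6 CPM after PBS (1.5-fold, adjusted p = 0.0556). Cox7b had 137, 194 and 147 CPM after PHZ and 96.0, 111 and 106 CPM after PBS (1.52-fold, adjusted p = 0.0571). Cox4i1, the ubiquitous form of subunit 4 through which ATP is known to inhibit the enzyme, had 273, 365 and 264 CPM after PHZ and 206, 204 and 189 CPM after PBS (1.5-fold, adjusted p = 0.0588). In all 3 genes PHZ replicate 2 was highest and no PHZ library fell to the level of a PBS library.

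Among the most abundant transcripts of the enzyme, Cox6a1 had 229, 386 and 271 CPM after PHZ and 189, 220 and 214 CPM after PBS (1.42-fold, adjusted p = 0.145), and Cox8a had 178, 242 and 174 CPM after PHZ and 148, 145 and 156 CPM after PBS (1.32-fold, adjusted p = 0.138). Both had groups that did not overlap, with PHZ replicate 2 far above the others. Cox6b1, which faces cytochrome c, was at 1.28-fold (adjusted p = 0.149), and its counts were partly shared with other loci. A locus that the authors matched to a protein like subunit 6B1 had 29.3, 77.1 and 53.1 CPM after PHZ and 21.3, 50.4 and 46.1 CPM after PBS. Cox7a2, whose counts were partly shared with other loci, had the largest estimate of the complex, with 29.1, 27.0 and 18.7 CPM after PHZ and 21.5, 11.2 and 13.7 CPM after PBS, and PHZ replicate 3 lay under PBS replicate 1 (1.61-fold, adjusted p = 0.149). A locus outside the 96 genes, which the authors matched to the same protein, was more abundant in every library. It had 48.7, 96.9 and 54.0 CPM after PHZ and 36.7, 50.4 and 56.5 CPM after PBS (log2 0.48 ± 0.30, adjusted p = 0.306). The estimate and the overlap of Cox7a2 therefore depend on how reads were split between these entries, which was not tested.

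Cox5a was the exception among the ubiquitous subunits of complex IV. It had 140.1, 176 and 119 CPM after PHZ and 115, 144 and 157 CPM after PBS, with the 2 groups interleaved (log2 0.06 ± 0.19, adjusted p = 0.836), and it is named here after its values were seen. Cox5a and Cox5b stand in each assembled enzyme together, and their ratio was taken within libraries. The pair was chosen after the values of both were seen, so the ratio and its p are a description of these libraries. Cox5b over Cox5a in FPKM (fragments scaled to transcript length and library depth) was 1.10, 0.954 and 1.05 in PHZ libraries, against 0.97, 0.657 and 0.536 in PBS libraries, and the groups overlapped (exact permutation test, two-sided p = 0.2). This was 1 of 4 ratios taken, and p-values adjusted over the 4 were 0.2 for it and 0.133 for each of the other 3.

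Tissue-specific forms of complex IV subunits were near the floor of detection. Cox4i2 had 1, 0 and 0 counts after PHZ and 2, 0 and 0 after PBS, and Cox6a2, the heart and muscle form, had 2, 0 and 0 after PHZ and 1, 1 and 0 after PBS. Cox8c, a testis form, had 0 counts in all PHZ libraries and 0, 0 and 1 after PBS. A count of 0 allows up to 3 counts, which is 0.142 to 0.23 CPM in these libraries. Cox6b2, a testis form of subunit 6B, was the only such gene that was tested, with 0.616, 1.25 and 0.766 CPM after PHZ and 1.03, 0.524 and 1.31 CPM after PBS, interleaved between groups (adjusted p = 0.884).

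Ndufa4l2, a hypoxia-induced relative of the complex IV subunit Ndufa4, had 72, 0 and 0 counts after PHZ and 7, 2 and 0 counts after PBS. Its signal came from PHZ replicate 1 alone and it did not pass the filter. It was the only gene of the 96 marked as changed in the authors' deposited table, which gives it the largest log2 ratio of the 96, 2.68. Its probability score there, 0.955, was below that of 60 unmarked genes of the 96 in the authors' deposited table. Ndufa4 itself had 62.2, 72.3 and 56.9 CPM after PHZ and 59.5, 45.4 and 45.3 CPM after PBS, with PHZ replicate 3 under PBS replicate 1 (1.27-fold, adjusted p = 0.182).

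**Figure D3:**
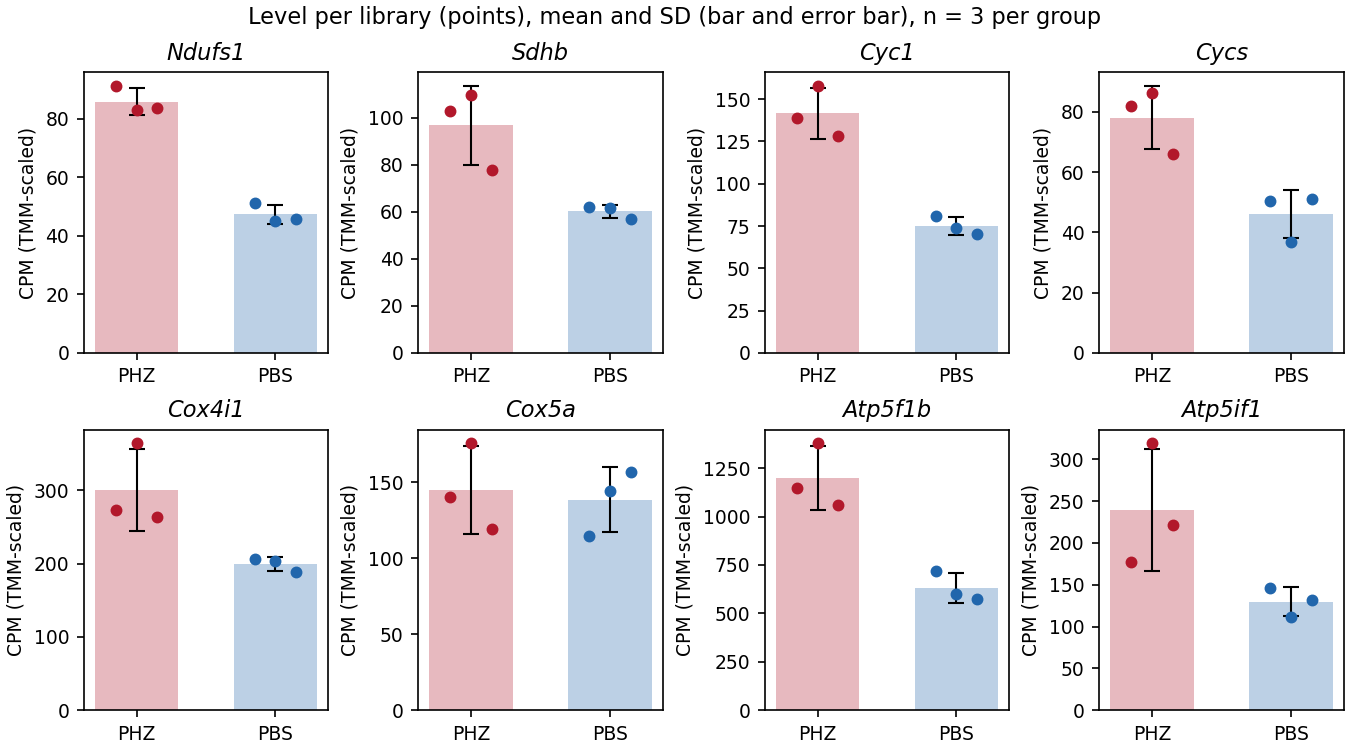
CPM (TMM-scaled, vertical axes from 0) of 8 genes, with a point for each library and bars for the mean and SD (n = 3 per group). In Ndufs1, Sdhb, Cyc1, Cycs, Cox4i1, Atp5f1b and Atp5if1 every PHZ library lay above every PBS library, and in Cox5a the groups were interleaved.

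ATP synthase had all of its 15 genes tested, of which 6 (40%) rose and 0 fell (median log2 fold change 0.57, range −0.08 to 0.93). In 12 (80%) every PHZ library lay above every PBS library. Over all tested genes, 8.99% rose and 22.5% had this order. In the catalytic F1 part, which makes ATP in the matrix, 3 of 5 genes rose. Atp5f1b, the beta subunit that holds the catalytic sites, had 1150.3, 1381 and 1061 CPM in PHZ libraries, against 717, 598 and 572 CPM in PBS libraries. It was the most abundant of the 96 genes by mean FPKM over all libraries, the groups did not overlap, and the difference was 1.90-fold (log2 0.93 ± 0.17, adjusted p = 0.0255).

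Atp5f1a, the alpha subunit that alternates with beta in the F1 ring, had 575, 584 and 492 CPM after PHZ and 359.8, 322 and 323 CPM after PBS (1.64-fold, adjusted p = 0.0273). Atp5f1d, the delta subunit of the central stalk, had 109, 159 and 108 CPM after PHZ and 70.1, 77.7 and 66.5 CPM after PBS (1.75-fold, adjusted p = 0.0385). In both genes the groups were apart. Atp5f1e, the small epsilon subunit of the same stalk, differed from them in pattern, with 57.7, 71.6 and 55.2 CPM after PHZ and 56.5, 72.3 and 65.0 CPM after PBS. Its groups were interleaved (log2 −0.07 ± 0.16, adjusted p = 0.774).

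The alpha and beta subunits enter F1 in equal number, and their transcripts were compared within libraries. Atp5f1b over Atp5f1a in FPKM was 2.13, 2.52 and 2.30 in PHZ libraries and 2.12, 1.98 and 1.89 in PBS libraries. The lowest PHZ and the highest PBS ratio nearly touched, and the exact permutation p was 0.1, the smallest that 3 against 3 libraries can give.

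In the peripheral stalk, which holds F1 still, Atp5po rose (108, 120.3 and 91.9 CPM after PHZ, against 74.4, 68.4 and 70.7 CPM after PBS, 1.5-fold, adjusted p = 0.0398). The other 3 stalk genes had estimates of 0.41 to 0.57. In all 4 every PHZ library lay above every PBS library, an order found in 22.5% of all tested genes. Of the 3 supernumerary membrane subunits, Atp5mf had the largest estimate, with 144, 271 and 191 CPM after PHZ and 106, 131 and 126 CPM after PBS, a 1.67-fold difference with a wide spread among PHZ libraries (adjusted p = 0.087).

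Subunit c forms the ring in the membrane that turns as protons pass, and 3 genes encode the same mature protein behind different import signals. The 3 genes parted in these data. Atp5mc1 had 86.1, 99.5 and 77.6 CPM in PHZ libraries, against 52.1, 52.3 and 46.0 CPM in PBS libraries (1.75-fold, log2 0.81 ± 0.14, adjusted p = 0.0226). Atp5mc3 had 130.5, 159.6 and 111 CPM after PHZ and 77.7, 85.2 and 83.3 CPM after PBS (1.63-fold, adjusted p = 0.0377). Both rose with no overlap between groups.

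Atp5mc2 had 158, 139 and 129 CPM after PHZ and 162, 144 and 143 CPM after PBS. Its groups overlapped and its estimate was on the other side of 0 (log2 −0.08 ± 0.13, adjusted p = 0.715), turning to 0.05 without the 3 libraries that went against their sex label. On the per-length scale Atp5mc2 was the most abundant of the 3 in all PBS libraries, at 251, 219 and 198 FPKM, where Atp5mc3 had 107, 118 and 105 FPKM and Atp5mc1 had 91.0, 91.3 and 72.8 FPKM. In PHZ libraries Atp5mc2 had 253, 178 and 184 FPKM, Atp5mc3 had 186, 185 and 144 FPKM and Atp5mc1 had 156, 146 and 126 FPKM, so that Atp5mc3 passed Atp5mc2 in PHZ replicate 2.

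The share of Atp5mc2 in the summed FPKM of the 3 genes was 42.6%, 34.9% and 40.5% in PHZ libraries, against 55.9%, 51.1% and 52.7% in PBS libraries. The ratio of Atp5mc1 to Atp5mc2 was 0.617, 0.824 and 0.687 after PHZ and 0.363, 0.416 and 0.368 after PBS. The ratio of Atp5mc3 to Atp5mc2 was 0.732, 1.04 and 0.784 after PHZ and 0.426, 0.539 and 0.531 after PBS. Neither ratio overlapped between groups, and each had an exact permutation p of 0.1, the smallest possible with 3 libraries per group. This set was taken up after its values were known, so the ratios are a description of these libraries. Reads of Atp5mc1 were partly assigned between loci, since its expected counts were not whole in 6 of 6 libraries. They were close to whole numbers, at 1814.97, 1592.95 and 1012.95 after PHZ and 857.95, 897.95 and 701.97 after PBS. A locus matched by the authors to the same protein held 2.03 to 3.05 counts per library.

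**Figure D4:**
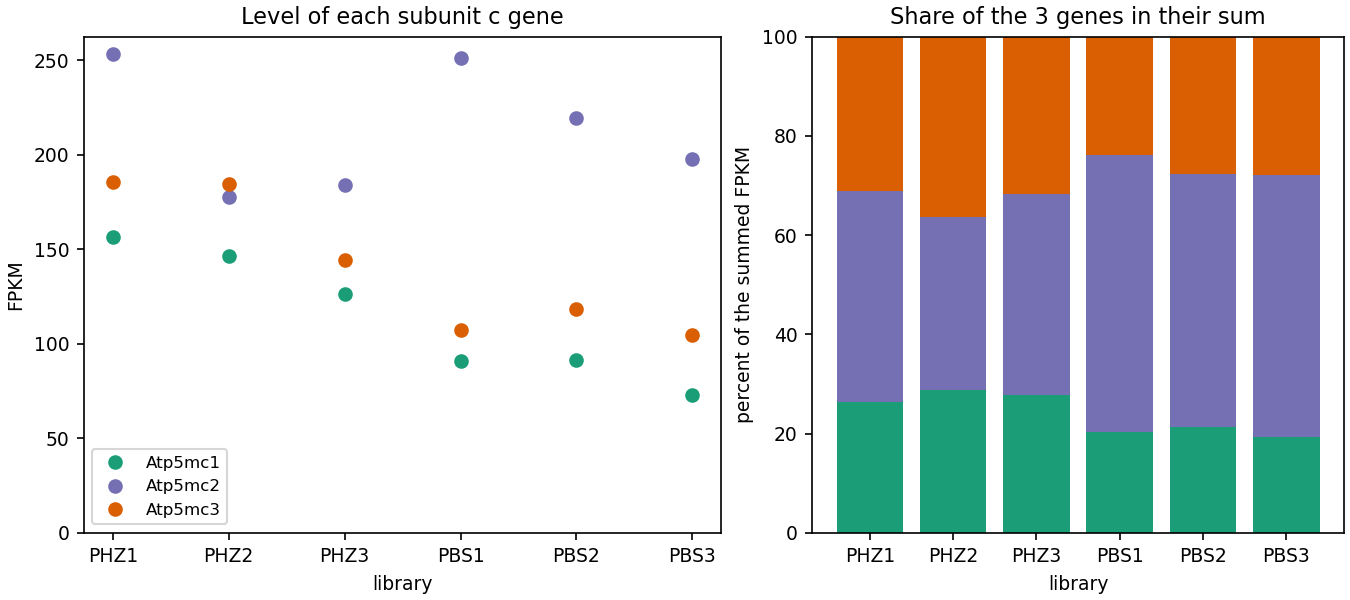
Left, FPKM of the 3 subunit c genes in each library. Right, each gene's percent of their summed FPKM, with the share of Atp5mc2 between 34.9% and 42.6% in PHZ libraries and between 51.1% and 55.9% in PBS libraries.

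The promoter windows of the subunit c genes are shown because the genes differed in their response, and that of Uqcrc1 because it holds letters of motifs of both NRF1 and YY1. NRF1 and GABP are transcription factors known to drive many nuclear genes of respiration, and YY1 is a further regulator of them. Windows are RefSeq sequences of build GRCr8, 250 bases before to 50 after the annotated start, 5′ to 3′ on the strand of the gene. Capitals mark matches on either strand to GCGCA, any base and GCGC (NRF1), CCGGAAG (GABP) or AAGATGGCG (YY1).
Atp5mc1, chr10:81523296-81523595, minus strand: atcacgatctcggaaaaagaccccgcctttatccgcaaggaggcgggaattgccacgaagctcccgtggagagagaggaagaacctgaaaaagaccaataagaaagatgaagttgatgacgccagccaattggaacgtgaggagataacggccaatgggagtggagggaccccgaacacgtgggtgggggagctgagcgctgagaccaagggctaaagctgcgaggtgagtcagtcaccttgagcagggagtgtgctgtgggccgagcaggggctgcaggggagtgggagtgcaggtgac
Atp5mc2, chr7:135678169-135678468, minus strand: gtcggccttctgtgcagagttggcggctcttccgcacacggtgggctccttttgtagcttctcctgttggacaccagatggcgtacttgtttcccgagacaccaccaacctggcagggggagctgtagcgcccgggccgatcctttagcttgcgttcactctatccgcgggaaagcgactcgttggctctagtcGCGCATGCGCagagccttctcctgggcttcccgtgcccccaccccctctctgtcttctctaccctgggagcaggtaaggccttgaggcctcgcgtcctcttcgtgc
Atp5mc3, chr3:79220615-79220914, minus strand: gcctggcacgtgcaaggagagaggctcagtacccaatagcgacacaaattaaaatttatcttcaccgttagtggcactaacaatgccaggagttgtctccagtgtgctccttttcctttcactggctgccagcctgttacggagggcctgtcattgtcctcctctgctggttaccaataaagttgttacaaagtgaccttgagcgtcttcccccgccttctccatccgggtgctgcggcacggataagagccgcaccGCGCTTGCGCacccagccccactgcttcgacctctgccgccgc
Uqcrc1, chr8:118467973-118468272, plus strand: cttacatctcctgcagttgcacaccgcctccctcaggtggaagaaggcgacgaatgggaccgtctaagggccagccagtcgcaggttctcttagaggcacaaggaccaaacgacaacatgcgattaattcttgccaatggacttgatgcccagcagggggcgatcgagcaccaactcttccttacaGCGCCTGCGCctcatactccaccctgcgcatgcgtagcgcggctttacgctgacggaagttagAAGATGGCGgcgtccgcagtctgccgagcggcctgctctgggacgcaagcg

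Atp5mc1, which rose, had none of the 3 motifs in this window. The NRF1 letters were found in Atp5mc2, which was not called, upstream of the start, and in Atp5mc3, which rose, just downstream of it. In Uqcrc1, which rose, the NRF1 letters lay upstream of the start and the YY1 letters spanned it. Of the 96 genes, 83 had a window, and 17 of these (20.5%) held the NRF1 letters, 25 (30.1%) those of GABP and 10 (12%) those of YY1. Over the 8676 windows of all tested genes the shares were 10.5%, 19.1% and 3.9%, and over all 27457 windows 4.8%, 9.6% and 2.0%.

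Among the genes that rose, 22 had a window, of which 7 held the NRF1 letters, 5 those of GABP and 4 those of YY1. Among the 58 tested genes with a window that were not called, 10, 20 and 6 held them. No test was run on these shares, and a match of letters is a description of the window and not of binding.

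Of the 17 assembly factors and related genes, 1 (5.88%) rose, which is under the 8.99% of all tested genes that did. They had 14 positive estimates and a median log2 fold change of 0.27. The 7 complex I assembly factors had a median of 0.60, and in 5 every PHZ library lay above every PBS library, an order found in 22.5% of all tested genes. Ndufaf1, which acts early in building the membrane arm, was the called gene, with 9.48, 10.2 and 8.66 CPM after PHZ and 5.95, 4.66 and 4.19 CPM after PBS (1.91-fold, log2 0.93 ± 0.23, adjusted p = 0.0447). Its groups were apart, and its expected counts were partly shared with another locus.

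Ndufaf6 had the largest estimate of the 92 genes and was not called. It had 26.2, 66.8 and 42.8 CPM after PHZ and 19.4, 23.5 and 24.9 CPM after PBS (2.00-fold, log2 1.00 ± 0.33, adjusted p = 0.0881). PHZ replicate 1 lay just above the PBS libraries and PHZ replicate 2 far above them. Atp5if1, the inhibitor protein that stops ATP synthase from running backwards, had a like arrangement, with 177, 319.5 and 221 CPM after PHZ and 146, 111 and 132 CPM after PBS (1.84-fold, adjusted p = 0.0562). It was among the most abundant of the 96 genes, at 539.9 ± 105 FPKM after PHZ and 310.3 ± 45.3 FPKM after PBS (SD, n = 3 each).

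The 7 complex IV assembly factors had a median log2 fold change of 0.17. In 1 of them (14.3%) every PHZ library lay above every PBS library, an order found in 22.5% of all tested genes. That gene was Cox11, which inserts copper, with 15.7, 16.5 and 16.7 CPM after PHZ and 8.51, 11.9 and 11.5 CPM after PBS (1.54-fold, adjusted p = 0.0675). Cox20, a chaperone of the second subunit of the enzyme, had the lowest estimate of all 92 genes, with 40.9, 55.6 and 56.1 CPM after PHZ and 50.8, 64.3 and 66.0 CPM after PBS, which overlapped (log2 −0.25 ± 0.18, adjusted p = 0.36). Expected counts of Cox11 and Cox20 were not whole in 6 of 6 libraries, as their reads were partly shared with other loci. Cox15, which makes haem A, had a log2 fold change of −0.15 ± 0.15 and Cox19 0.07 ± 0.20, both with overlapping groups, and the estimate of Cox19 was −0.0026 under library-total scaling.

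Cox7a2l, a factor that joins complexes III and IV into supercomplexes, had 151, 145 and 121 CPM after PHZ and 155, 143 and 156 CPM after PBS, again overlapping (log2 −0.12 ± 0.13, adjusted p = 0.552). The difference between assembly factors and subunits was not tested.

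In level per transcript length, complex IV and ATP synthase led the 96 genes. The median FPKM of complex V genes was 192 after PHZ and 145 after PBS, that of tested and untested complex IV genes 211 and 162, that of complex I genes 65.8 and 48.9, and that of assembly factors and related genes 11.6 and 11.4. After PBS the order was led by Cox6a1 at 428 ± 34.4 FPKM, Atp5f1b at 376 ± 60.8, Cox8a at 346 ± 7.97 and Atp5mf at 327 ± 34.9 (SD, n = 3), and neighbours in this order differed by less than their combined SDs. After PHZ Atp5f1b had the highest mean of these, 684 ± 61.7 FPKM, beside Cox6a1 at 577 ± 95.3, Atp5mf at 515 ± 108 and Cox8a at 436 ± 45.2 (SD, n = 3).

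The PHZ libraries were not alike. Relative to the mean of the PBS libraries, the median of the 92 genes on the log2 scale was 0.44, 0.72 and 0.34 in PHZ replicates 1 to 3, and 0.06, −0.01 and −0.03 in PBS replicates 1 to 3. PHZ replicate 2, which also had the largest share of globin transcripts, was the highest PHZ library in 75 of the 92 genes, and PHZ replicate 3 the lowest in 62. Over all 13547 tested genes these numbers were 4756 and 3891. These orders depend on the scaling, as the TMM factors were 1.083, 0.8817 and 0.9896 for PHZ replicates 1 to 3. As a share of all counts, without these factors, the genes summed to 0.932%, 0.928% and 0.799%, and PHZ replicate 2 was not the highest. PHZ replicate 1 had the smallest globin share of the PHZ libraries, 9.59%, and a higher median than PHZ replicate 3, which had 16.19%. The part of the globin share in the order of the PHZ libraries was not tested.

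The files also hold loci that the authors numbered as additional and matched to proteins, and 12 of these matches name a subunit, 7 of them at tested loci. The only called locus was 1 of 2 tested loci matched to the complex I subunit NADH dehydrogenase iron-sulfur protein 6, for which no gene symbol appears among the 96. It had 40.5, 78.2 and 49.6 CPM in PHZ libraries and 28.3, 29.6 and 26.9 CPM in PBS libraries, without overlap (1.98-fold, adjusted p = 0.0471). The other locus with this match was far less abundant and overlapped between groups, with 1.52, 1.5 and 0 CPM after PHZ and 2.19, 1.16 and 0.983 CPM after PBS (log2 −0.50 ± 1.04, adjusted p = 0.764). Expected counts of each of these 2 loci were not whole in 5 of 6 libraries, as their reads were partly shared with other loci. Their levels are uncertain to that extent.

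Other mitochondrial gene lists were set beside the chain. Of 32 assembly factors outside the naming rule, 2 (6.25%) rose and 0 fell by edgeR, a share under the 8.99% of all tested genes that rose. Their median log2 fold change was 0.46, and 30 estimates were positive. In 20 (62.5%) every PHZ library lay above every PBS library, an order found in 22.5% of all tested genes. DESeq2 called 6 higher, where it called 14.1% of all tested genes higher. The 2 called by edgeR were Lyrm7, a complex III assembly factor (2.43-fold, adjusted p = 0.0409), and Sdhaf3, a complex II assembly factor (2.36-fold, adjusted p = 0.0479). Of 71 mitochondrial ribosomal proteins, which make the mitochondrially encoded subunits, 30 (42.3%) rose and 0 fell (median 0.57). The smallest adjusted p among them was that of Mrpl38 (2.09-fold, adjusted p = 0.0156). Of 13 genes of the citric acid cycle, which feeds NADH and succinate to the chain, 7 (53.8%) rose and 0 fell (median 0.52).

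Among the citric acid cycle genes, citrate synthase (Cs) had 208, 195 and 159.8 CPM after PHZ and 101, 85.8 and 85.6 CPM after PBS (2.06-fold, adjusted p = 0.0187). Idh3a, of the NAD-dependent isocitrate dehydrogenase, had 94.7, 82.1 and 71.1 CPM after PHZ and 37.0, 34.2 and 36.5 CPM after PBS (2.30-fold, adjusted p = 0.0154). Both groups of libraries were far apart in each gene. Of 8 tested genes of antioxidant defence and carriers of the inner membrane, 2 (25%) were called, both higher, where 8.99% of all tested genes rose. They were Slc25a4, an adenine nucleotide carrier that exports ATP (1.78-fold, adjusted p = 0.0212), and Prdx3, a mitochondrial peroxidase (2.49-fold, adjusted p = 0.0239). The 8 did not move alike, with 5 positive and 3 negative estimates (log2 −1.40 to 1.31). In 3 every PHZ library lay above every PBS library, and in 2 every PHZ library lay below. These orders were found in 22.5% and 19.2% of all tested genes.

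Of 22 tested regulators of mitochondrial transcription and biogenesis, 7 (31.8%) rose and 0 fell by edgeR, where 8.99% of all tested genes rose and 4.17% fell. DESeq2 called 7 higher and 1 lower. The median log2 fold change was 0.35, with 16 positive and 6 negative estimates (−0.76 to 0.91). In 11 every PHZ library lay above every PBS library, and in 2 every PHZ library lay below. These orders were found in 22.5% and 19.2% of all tested genes. Nrf1 had 82.8, 86.0 and 74.6 CPM after PHZ and 56.7, 55.6 and 61.6 CPM after PBS, without overlap (1.40-fold, adjusted p = 0.0427). Pprc1, a coactivator of the PGC-1 family, rose 1.51-fold (adjusted p = 0.0231) and Lrpprc, which stabilises mitochondrial mRNA, 1.53-fold (adjusted p = 0.0308). The other 4 were Mterf3, Slirp, Polg and Twnk.

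Esrra, the estrogen-related receptor alpha, which also drives respiratory genes, had values in the opposite order. It had 16.8, 13.6 and 20.0 CPM after PHZ and 22.9, 31.6 and 28.6 CPM after PBS, without overlap but short of the threshold (log2 −0.72 ± 0.20, adjusted p = 0.059). Tfam, which packages and transcribes mitochondrial DNA, was at 1.35-fold (adjusted p = 0.121) and Gabpa at 1.25-fold (adjusted p = 0.13), and neither was called. Ppargc1a, the coactivator PGC-1 alpha, had 4, 3 and 2 counts after PHZ and 7, 4 and 4 after PBS and did not pass the filter.

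Markers of the cell types that a c-kit enrichment can hold moved between groups as well, and in bulk RNA fewer cells of a type and less RNA per cell cannot be told apart. Of 7 erythroid markers, 3 (42.9%) rose, where 8.99% of all tested genes did. They were Tfrc, the transferrin receptor (3.35-fold, adjusted p = 0.0212), Klf1 (2.79-fold, adjusted p = 0.0218) and Gata1 (2.34-fold, adjusted p = 0.0247). The summed level of the 7 erythroid markers, which is mostly globin, ranged from 74842 to 228733 CPM after PHZ and from 87967 to 199271 CPM after PBS and overlapped. All 5 B lineage markers were lower in every PHZ library, an order found in 19.2% of all tested genes. Of these 5, 4 were called, where 4.17% of all tested genes fell. The sums of the 5 were 112 to 197 CPM after PHZ and 471 to 509.6 CPM after PBS.

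All 4 T and NK markers fell, where 4.17% of all tested genes did. Their sums were 6.06 to 7.59 CPM after PHZ and 18.7 to 35.5 CPM after PBS. None of 6 tested neutrophil markers was called by edgeR. All 6 had negative estimates (median log2 fold change −0.92). DESeq2 called 3 of them lower, where it called 1559 of all 13547 tested genes lower. The 7 listed neutrophil markers, tested or not, summed to 4335 to 8981 CPM after PHZ and 10396 to 19294 CPM after PBS. Stromal and endothelial markers summed to 21.9 to 40.1 CPM after PHZ and 65.4 to 512 CPM after PBS, where the top value was PBS replicate 1, and 1 of 4, Pecam1, fell. Among stem and progenitor markers Procr fell (adjusted p = 0.0243), Kit and Gata2 were not called, and Cd34 stayed under 1 CPM in every library.

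Monocyte and macrophage markers summed to 828 to 1113 CPM after PHZ and 775 to 1996 CPM after PBS. Mast cell and basophil markers summed to 266 to 437 CPM after PHZ and 438 to 869.7 CPM after PBS, and megakaryocyte markers to 17.2 to 23.0 CPM after PHZ and 18.3 to 28.3 CPM after PBS. In these 3 lists 0 were called by edgeR. DESeq2 called 1 monocyte and macrophage marker and 1 mast cell and basophil marker lower, and 0 megakaryocyte markers. The part of these markers in the respiratory gene differences was not tested.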

How the data were processed

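The submitters' processing notes list the build rn6 and the tools HISAT, GATK and RSEM, without saying what each did or which version was used. The authors deposited for each library an expected count per gene, which need not be whole, and an FPKM value, per the file headers. Unlisted genes were set to 0. The authors' deposited comparison holds group means in FPKM, a log2 ratio and a probability score.

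Expected counts were rounded and tested with edgeR 4.0.16 in R 4.3.3 (TMM, filterByExpr, robust glmQLFit, glmQLFTest, treatment as the only term, Benjamini-Hochberg adjustment over all 13547 tested genes). The threshold for a call was an adjusted p under 0.05. Each rat is 1 sample. The biological coefficient of variation was 35.2% on 4 residual degrees of freedom. Levels are TMM-scaled CPM, and FPKM where genes are compared with each other. On simulated data (13316 genes) the test found 18 of 99 genes with a 2-fold change and 57 of 97 with a 4-fold change, and 9 of its 84 calls were false. Ratios within libraries used an exact two-sided permutation test. DESeq2 1.42.0 and limma 3.58.1 on log2(FPKM + 1) served as alternatives. Expected counts were not whole in at least 1 library for 16 of the 96 genes, whose reads are shared with other loci. Replicates differed by more than sampling noise (chi-square per degree of freedom 48.3 to 177), so none were merged.

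The rule for members uses symbols alone, but this set of genes and the lists were picked for study with earlier results of these data known. Named genes were, for each complex, the 3 with the smallest p and the 1 with the largest, the 4 largest and 4 smallest fold changes, the 3 with the highest mean FPKM, sets of isoforms and called genes of the lists; other genes named complete a count or were chosen after their values were seen. Promoter windows came from RefSeq, build GRCr8, matched by gene ID for 83 genes. The own values of 1 complex I gene are not reported here, though it is in the counts.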

Additional observations from a re-analysis of the deposited data

How the results depend on the processing

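The count of 23 genes called higher was 20 with RLE scaling, 23 with globin genes left out of scaling and 17 with limma. It was 22 of 96 without a filter on low counts. It moved to 14 with upper-quartile scaling, 10 with library totals only, 43 with DESeq2 and 11 with sex as labelled as a covariate. Y-linked transcripts went against that label in 3 libraries, so this term is not an adjustment for the sex that those transcripts show. Over all genes, 1783 calls became 1015 with library totals only, 3469 with DESeq2 and 928 with sex as labelled as a covariate. The share of calls that were higher, 68.3%, was 58.7% with upper-quartile scaling and 55.1% with DESeq2. Without the 3 libraries that went against their sex label, PBS replicate 3 was the only control left, so only estimates are given for that fit. Leaving out 1 library gave 0 to 19 genes of the chain (15 without PBS replicate 1, 7 without PHZ replicate 3) and 0 to 1744 of all genes. No gene of the chain was called lower under any of the 16 alternatives, and the median log2 fold change stayed within 0.39 to 0.60. With the replicate number as a block, 0 genes were called in the chain (56 at an unadjusted p under 0.05) and 0 among all genes. Deviations from the group mean, over all tested genes, correlated at 0.213, 0.057 and 0.005 between same-numbered PHZ and PBS libraries. Between differently numbered libraries they correlated at −0.166 to 0.154, so the numbers are not taken to pair rats. Of the named genes' values, 18 turned sign, all in genes that were not called. Ndufa1 became −0.00025 (RLE), −0.042 (upper quartile), −0.06 (library totals), −0.00021 (DESeq2), −0.07 (limma), −0.015 (sex) and −0.014 (replicate block), and −0.22 to 0.16 leaving out 1 library. Cox19 became −0.0026 (library totals) and −0.0044 (limma), Atp5mc2 0.055 without the 3 libraries. Leaving out 1 library gave −0.11 to 0.18 for Cox19, −0.19 to 0.019 for Atp5f1e and −0.46 to 0.17 for Cox6b2. The cause was not tested.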
